A study of Mus musculus with 120 samples.

Results

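The genes described here encode the proteins of the cytosolic ribosome. They were taken from the deposited footprint and mRNA tables by symbol: Rpl or Rps followed by a number and at most one of the letters a, x or l, plus Rpsa, Rplp0, Rplp1 and Rplp2. This gave 80 of 22417 genes in each table, of which 31 belong to the small (40S) subunit, 46 to the large (60S) subunit and 3 are the stalk proteins Rplp0, Rplp1 and Rplp2. Ribosomal proteins that carry other names, such as Fau and Gnb2l1, were outside that rule and are given as a separate list.

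Ribosomal proteins are made in near equal numbers and join ribosomal RNA in the nucleolus and cytosol. Most of their mRNAs begin with a tract of pyrimidines directly at the cap, the 5′ terminal oligopyrimidine (TOP) tract, through which growth signalling by mTORC1 and the binding protein LARP1 sets how many ribosomes load on them. ER stress activates PERK, which phosphorylates eIF2α and lowers translation initiation on most mRNAs, so the footprints of the ribosomal protein genes report how the cell spends its remaining translation on the translation machinery itself.

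Footprints are the mRNA pieces that ribosomes protect from nuclease. They and fragmented mRNA were sequenced from mouse embryonic fibroblasts (MEFs, cultured connective tissue cells) of 3 genotypes: wild type (WT), eIF2α S51A, whose eIF2α lacks the phosphorylation site, and cells labelled ATF4-/-. ATF4 is the transcription factor whose translation eIF2α phosphorylation favours. Cells were untreated (0 h) or received 1 µM thapsigargin, an inhibitor of the ER calcium pump, for 0.5, 1, 2 or 4 h, and were split into a cytosol and an ER fraction with digitonin and then DDM. The labels list 120 samples in 60 groups of 2 libraries, and do not say whether both came from separate cultures or how many independent lines stand behind a genotype. All p-values therefore measure the spread between these libraries, which may be technical, and a difference between genotypes may also be one between lines.

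Levels are in RPKM, read density per length of coding sequence and per amount of sequencing on the authors' scale, recovered per library from their pooled values. WT footprint libraries held 290974 to 10807681 recovered reads, S51A ones 6222920 to 15152652 and those labelled ATF4-/- 2023715 to 8706346, and WT mRNA libraries held 54885 to 117033. In the cytosol the 2 libraries of a group differed, at the median member, by the least in S51A at 1 h (0.16 on the log2 scale) and by the most in S51A at 0.5 h (0.74), with WT at 0.5 h (0.70) next. The smaller WT libraries at 0.5 h and 1 h had 145 and 284 reads at the median member. All 7 fibroblast markers, such as Vim and Col1a1, were at 1 RPKM or more in every genotype, and so were the 3 neural markers, summed to 108, 162 and 92.4 RPKM in WT, S51A and cells labelled ATF4-/-. Of 3 endothelial markers none reached 1 RPKM and Pecam1 was listed at 0, of 3 epithelial markers only Krt8 did, in cells labelled ATF4-/-, and of 2 immune markers only Cd68 did, in WT. The authors' pooled Atf4 footprint total was not silent in cells labelled ATF4-/-, with 11.5 RPKM untreated and 362 RPKM at 4 h, against 132 and 1371 RPKM in WT. The labels do not describe the deleted stretch of the gene. RPKM is a relative measure, so a higher level cannot be told apart from a lower level of other genes, nor more RNA per cell from more cells of one kind. The recovered levels were not scaled to a fixed sum per library. In the deeper untreated WT footprint libraries they summed to 530214 RPKM in cytosol and 374181 RPKM on the ER. In those at 0.5 h they summed to 676613 and 314460 RPKM. A change within a fraction can thus hold a part common to all its genes, so the median of all genes is given beside it.

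To show the feature that the symbols did not choose, the bases around annotated starts were read from RefSeq promoters of build GRCm38.p6, which hold 72 starts of 60 of the 80 genes. A tract was counted where the first base and at least 4 more are C or T on the gene's strand. It stood at 16 of 72 member starts (22.2%, 95% Wilson interval 14.2 to 33.1%) and at 1457 of 32851 starts of all genes (4.44%, 4.22 to 4.66%). Where the tract could begin up to 5 bases to either side, the shares were 43.1% and 26.4%. With C required as the first base they were 18.1% and 2.51%. The windows below run from 10 bases before the start to 20 from it, 5′ to 3′, with the tract in capitals. They show 7 members that the results turn on, and then Rpl23, Rps27l and Rpl41, whose annotated starts carry none.

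Rpl38 (chr11:114668570-114668599, plus strand): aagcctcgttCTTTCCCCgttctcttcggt
Rps6 (chr4:86857348-86857377, minus strand): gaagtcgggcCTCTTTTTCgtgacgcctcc
Rps18 (chr17:33955646-33955675, minus strand): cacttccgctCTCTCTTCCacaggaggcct
Rps10 (chr17:27635225-27635254, minus strand): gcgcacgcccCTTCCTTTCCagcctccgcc
Rps21 (chr2:180257369-180257398, plus strand): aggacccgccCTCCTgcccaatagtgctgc
Rps15a (chr7:118116128-118116157, minus strand): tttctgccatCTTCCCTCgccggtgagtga
Rps24 (chr14:24490668-24490697, plus strand): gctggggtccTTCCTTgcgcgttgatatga
Rpl23 (chr11:97782420-97782449, minus strand): gtccggtcacgtggctgagtgggcggggcc
Rps27l (chr9:66946076-66946105, plus strand): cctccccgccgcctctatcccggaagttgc
Rpl41 (chr10:128549149-128549178, minus strand): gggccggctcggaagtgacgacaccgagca

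Ribosomal protein genes took a large part of the summed footprint RPKM. RPKM is divided by coding length, so short genes weigh more in this share than in a share of reads. Of the authors' pooled footprint totals they made up 10.8% in untreated WT, 10.8% in S51A and 17.2% in cells labelled ATF4-/-. Over the recovered levels, whose sums leave out genes with no library value, the share in the 10 cytosol libraries ran from 10.6 to 15.1% for WT (median 14.5%), from 13.6 to 16.9% for S51A (16.1%) and from 19.7 to 24.9% for cells labelled ATF4-/- (21.7%). In the ER fraction it ran from 8.74 to 11.8% (WT), from 8.59 to 10.4% (S51A) and from 16.6 to 18.6% (labelled ATF4-/-). The libraries labelled ATF4-/- lay above every WT and S51A library of the same fraction, at every time.

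**Figure D1:**
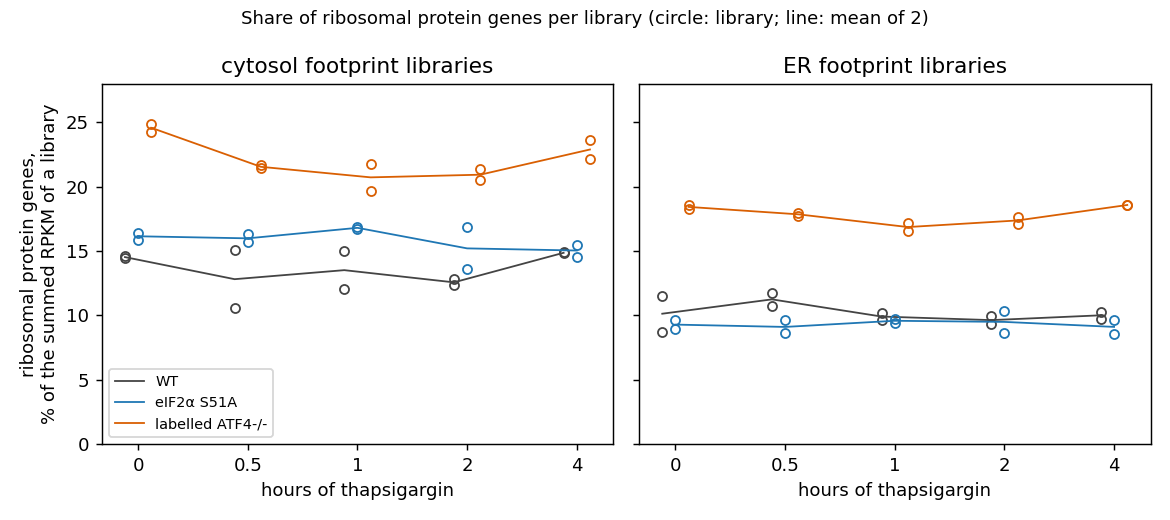
Share of the summed RPKM of each footprint library that falls on ribosomal protein genes (percent, y axis) against hours of thapsigargin (x axis), for the cytosol (left) and ER fraction (right); each circle is a library and lines join the means of 2. The libraries labelled ATF4-/- sit at 19.7 to 24.9% in cytosol, above all WT and S51A libraries.

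The members were far from equal among themselves, although one copy of nearly each goes into a ribosome. In untreated WT cytosol the median member stood at 888 RPKM, with quartiles of 676 and 1154 RPKM over the 77 with a value. Rpl41, the shortest, with a coding length of 75 nt, was highest at 6870 and 3661 RPKM in the 2 libraries, followed by Rps29 (mean 2005 RPKM) and Rpl35 (2002 RPKM). Rpl39l (9.61 and 8.51 RPKM), Rpl29 (140 and 146 RPKM) and Rpsa, the 40S protein also known as the laminin receptor (259 and 311 RPKM), were lowest. Only a few codons of Rpl41 are counted, so its level rests on few positions. Reads of ribosomal protein genes can also match processed pseudogenes, and the labels do not say how such reads were placed, so levels of single members carry that uncertainty.

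Untreated cells labelled ATF4-/- carried more cytosol footprints on many ribosomal protein genes than WT. Of 76 members tested, 37 were higher and 3 lower at an adjusted p below 0.05, where 13.8% of the 2224 genes tested were higher and 37.5% lower, 51.3% in all. The median member was at 0.57 on the log2 scale and the median of all genes at −0.30. Both subunits contributed, with 14 of 31 small-subunit and 23 of 42 large-subunit members higher and medians of 0.56 and 0.59. Of the 76 members, 51 had both libraries labelled ATF4-/- above both WT libraries and 7 had both below, where 24.5% and 52.1% of all genes tested did. These tests used limma with Benjamini-Hochberg adjustment over all genes tested, on log2(RPKM + 1), and changes are given with their standard error (n = 2 libraries a group). With libraries scaled by trimmed means, which brought the median of all genes to −0.02, 53 members were higher and 2 lower, where 23.4% of genes were higher. Leaving out 1 library of the 4 in turn put the median member at 0.47 to 0.78. Of the 40 calls, 21 were kept in every such fit, the falls of Rpl29 and Rpl21 among them. The fewest calls, 26, came both without the deeper WT library and without the shallower library labelled ATF4-/-.

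Rpl38, a large-subunit protein known from mice in which its loss alters the skeleton (chromosome 11, 114668524 to 114672331 on GRCm38), stood at 6143 and 5271 RPKM in the libraries labelled ATF4-/- and at 1689 and 1613 RPKM in WT. That is a log2 difference of 1.79 ± 0.26 (adjusted p = 4.4e-06), the largest rise among the members. Rpl23, which also binds Mdm2 (chromosome 11, 97777527 to 97782437), followed at 3026 and 2331 RPKM against 684 and 947 RPKM (1.72 ± 0.30, adjusted p = 3.8e-05). Rpl8, a protein near the peptidyl transferase centre (chromosome 15, 76904078 to 76906314), stood at 2574 and 3133 RPKM against 794 and 938 RPKM (1.72 ± 0.29, adjusted p = 2.5e-05). In none of the 3 did the groups overlap, and each was called whichever single library was left out. The S51A libraries of Rpl38 stood at 2097 and 1747 RPKM.

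The 3 members that were lower are Rpl29 and Rpl21, both large-subunit proteins, and Rps27l, a paralogue of the small-subunit protein Rps27 and a p53 target. Rpl29 had 11.4 and 28.5 RPKM in the libraries labelled ATF4-/- and 140 and 146 RPKM in WT (−2.91 ± 0.42, adjusted p = 3.7e-06). Rpl21 had 85.9 and 98.8 RPKM against 309 and 521 RPKM (−2.11 ± 0.31, adjusted p = 3.4e-06). Both calls held whichever library was left out. Rps27l had 165 and 273 RPKM against 403 and 430 RPKM (−0.97 ± 0.33, adjusted p = 0.016), a call that was kept in 1 of the 4 fits with a library left out and lost under trimmed-mean scaling. In none of the 3 did the groups overlap. The authors' pooled mRNA total of Rpl29 was 55.0 RPKM in untreated cells labelled ATF4-/- and 20.5 RPKM in WT, and that of Rpl21 was 555 and 216 RPKM, beside 1135 and 306 RPKM for the median member. That of Rps27l was 165 RPKM in cells labelled ATF4-/- and 954 RPKM in WT. Most mRNA totals of untreated cells labelled ATF4-/- come without a fraction on the ER, as given with the mRNA results.

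**Figure D2:**
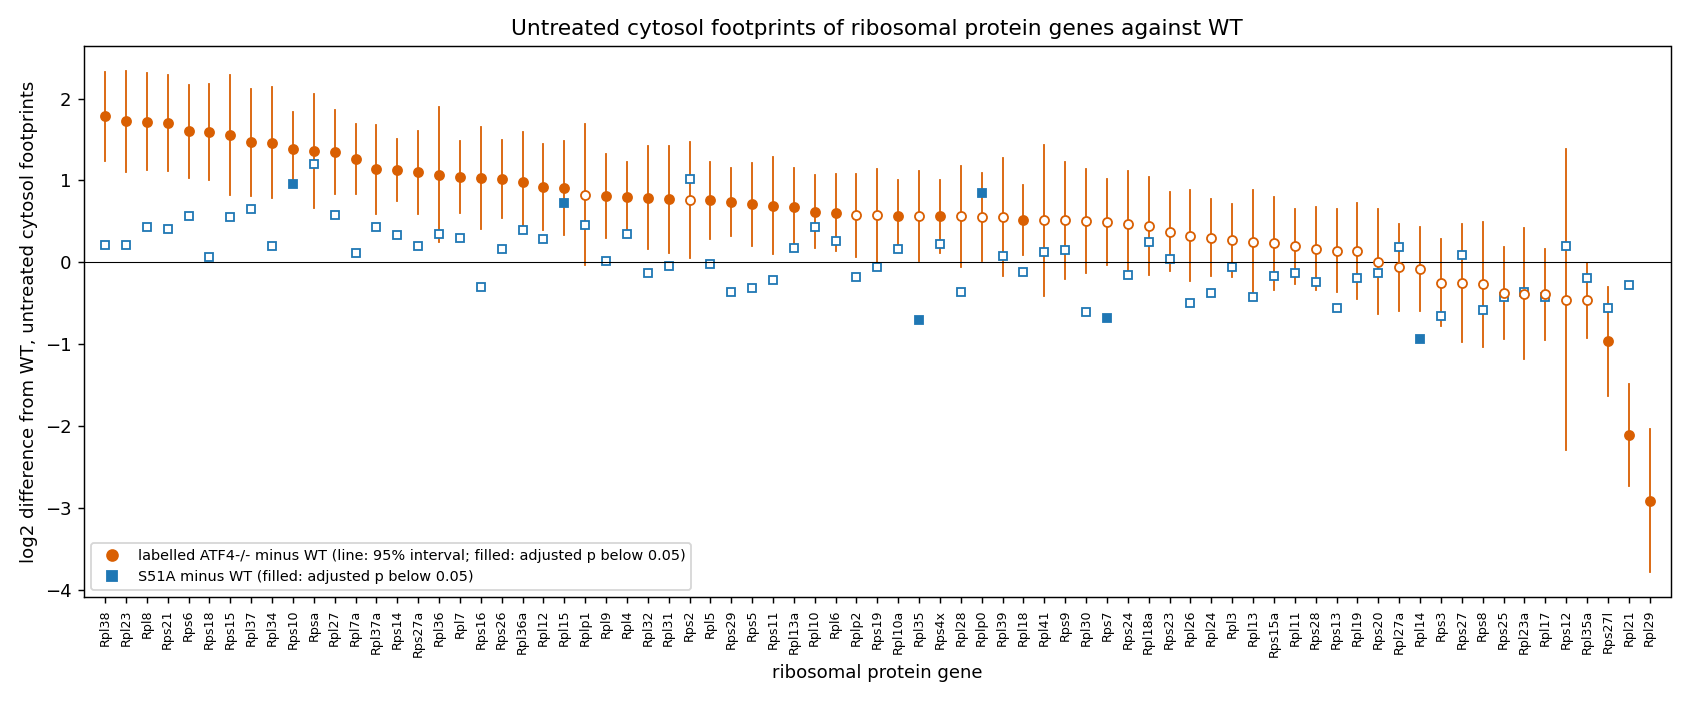
Log2 difference from WT in untreated cytosol footprints (y axis) for the tested ribosomal protein genes reported here (x axis, ordered by the difference of cells labelled ATF4-/-); circles with 95% intervals are cells labelled ATF4-/-, squares are S51A, filled symbols have an adjusted p below 0.05. Of the circles 37 are filled above zero and 3 (Rps27l, Rpl21 and Rpl29) below, and 6 squares are filled, 3 on either side of zero.

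By role, called members lay in several parts of the ribosome. Rps6, the substrate of S6 kinase, was at 5236 and 3609 RPKM in the libraries labelled ATF4-/- against 1637 and 1253 RPKM (1.6 ± 0.28, adjusted p = 3.3e-05). Among small-subunit proteins around the path of the mRNA, Rpsa rose by 1.36 ± 0.34 (0.0017), whereas Rps2 was at 0.76 ± 0.35 (0.067) and Rps3 at −0.25 ± 0.26 (0.44). Of the stalk that recruits elongation factors, the base protein Rpl12 rose by 0.92 ± 0.25 (0.0040), while Rplp0 (0.56 ± 0.26, 0.076), Rplp1 (0.83 ± 0.42, 0.10) and Rplp2 (0.57 ± 0.25, 0.053) did not pass. Of the pair that binds 5S rRNA and Mdm2, Rpl5 rose by 0.76 ± 0.23 (0.0080) and Rpl11 was at 0.20 ± 0.22 (0.48). All values in parentheses after an error are limma adjusted p-values.

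At the exit tunnel, where the new chain leaves the ribosome, Rpl4 rose by 0.80 ± 0.21 (adjusted p = 0.0025), and Rpl17 (−0.39 ± 0.27, 0.24) and Rpl26 (0.32 ± 0.27, 0.32) did not pass. Among genes mutated in Diamond-Blackfan anaemia, an inherited failure of red cell production, Rps26 rose by 1.02 ± 0.23 (0.00073), and Rps19 (0.57 ± 0.28, 0.088), Rps7 (0.49 ± 0.25, 0.11), Rps24 (0.46 ± 0.32, 0.23) and Rpl35a (−0.46 ± 0.22, 0.085) did not pass. Rps27a, made as a fusion with ubiquitin, rose by 1.1 ± 0.25 (0.00067). Of the X-linked members Rpl10 (0.62 ± 0.22, 0.020), Rpl36a (0.98 ± 0.30, 0.0083) and Rps4x (0.56 ± 0.22, 0.034) rose, and Rpl39 (0.55 ± 0.35, 0.20) did not pass. Rpl13a, a protein of the GAIT complex in human cells, rose by 0.67 ± 0.24 (0.021), and Rpl10a by 0.57 ± 0.21 (0.028). The calls of Rpl10 and Rpl10a were lost whichever library was left out, and those of Rps4x and Rpl13a in 3 of the 4 such fits. The shortest protein, Rpl41, was at 0.52 ± 0.45 (0.35), and Rps25, used by viral internal ribosome entry sites, at −0.38 ± 0.27 (0.26). Most roles thus held called and uncalled members side by side.

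Of the tested members with a tract at an annotated start, as in Rpl38 and Rps6 above, 7 of 16 were higher with a median of 0.57, and of those with a start but no tract, as in Rpl23, 21 of 40 were higher and 1 lower with a median of 0.57. Of all genes tested in that comparison of untreated cells, 13.8% were higher and 37.5% lower. Under thapsigargin, only cells labelled ATF4-/- at 0.5 h and WT at 2 h were described by tract. In cells labelled ATF4-/- at 0.5 h, 4 of 16 members with a tract were higher and 1 lower (median 0.32). Of 41 without, 3 were higher and 2 lower (median 0.05). Of all genes there, 21.4% were higher and 1.11% lower (median 0.24). In WT at 2 h none of 16 was higher or lower (median −0.11) and none of 40 was higher and 2 lower (median −0.28). Of all genes there, 16.3% were higher and 3.58% lower (median 0.12). Of the 20 tested members with no start in the reference, 9 were higher and 2 lower in the untreated cells (median 0.60). In cells labelled ATF4-/- at 0.5 h 2 of them were higher and 1 lower (median −0.16). In WT at 2 h none was called (median −0.27). Members counted without a tract include some with one within 5 bases of the annotated start, such as Rps27l. These differences between the kinds of member were not tested. For the untreated cells, Spearman's rho between coding length and the difference was 0.0027 over the 76 members and −0.21 over all 2224 genes, a description over genes, which share libraries.

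Between untreated S51A and WT cells few ribosomal protein genes passed the test, and these lay on both sides. Of 75 members tested, 3 were higher and 3 lower, where 11% of the 2364 genes tested were higher and 25.3% lower, 36.3% in all, and the medians were 0.08 for members and −0.21 for all genes. Rps10, a protein of the 40S beak that is ubiquitinated when ribosomes collide (chromosome 17, 27630418 to 27636669), stood at 1102 and 1268 RPKM in S51A against 558 and 661 RPKM in WT (0.96 ± 0.29, adjusted p = 0.013). Rplp0, the stalk base that carries Rplp1 and Rplp2, stood at 728 and 835 RPKM against 430 and 437 RPKM (0.84 ± 0.32, adjusted p = 0.040). Rpl15, a large-subunit protein, stood at 668 and 543 RPKM against 304 and 437 RPKM (0.72 ± 0.28, adjusted p = 0.043).

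The 3 members that were lower in S51A were Rpl14, Rpl35 and Rps7. Rpl14, a large-subunit protein, stood at 367 and 327 RPKM against 661 and 668 RPKM in WT (−0.94 ± 0.37, adjusted p = 0.046). Rpl35, at the exit tunnel, stood at 1200 and 1244 RPKM against 1734 and 2270.5 RPKM (−0.70 ± 0.25, adjusted p = 0.028). Rps7 stood at 820 and 727 RPKM against 1208 and 1276 RPKM (−0.68 ± 0.25, adjusted p = 0.033). In none of the 6 did the groups overlap. Of all genes tested, 25.8% had both S51A libraries above both WT libraries and 47.1% had both below. None of the 6 calls held in all 4 fits with a library left out. No member was called without the shallower S51A library. With trimmed-mean scaling, which took the median of all genes from −0.21 to −0.02, 8 members were higher, where 16.3% of genes were, and none lower. Rps10 also rose in untreated cells labelled ATF4-/-, to 1532 and 1637 RPKM (1.38 ± 0.22, adjusted p = 1.3e-05).

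In WT cells few ribosomal protein genes passed the test in the cytosol after thapsigargin, and most of those that passed fell. At 0.5 h 1 of 76 members was higher and 1 lower (14.9% and 1.07% of all genes tested, 16% in all). At 1 h 1 was higher and 4 lower (17% and 6.52%, 23.6% in all), at 2 h none and 2 (16.3% and 3.58%, 19.9% in all) and at 4 h none and 2 (9.34% and 5.39%, 14.7% in all). At an unadjusted limma p below 0.05 there were 17, 11, 8 and 11 members (22.4%, 14.5%, 10.5% and 14.5%), against 30.8%, 36.1%, 33.9% and 30% of all genes. Member medians were −0.18, −0.08, −0.24 and −0.22 at the 4 times, against 0.11, 0.09, 0.12 and 0.05 for all genes. Both treated libraries lay below both untreated ones in 13, 20, 37 and 35 members. These are 17.1%, 26.3%, 48.7% and 46.1%, against 16.4%, 24%, 25.2% and 30.7% of all genes. They lay above in 14, 17, 5 and 3 members, or 18.4%, 22.4%, 6.58% and 3.95%, against 39.6%, 37.1%, 44.8% and 38% of all genes. In the median member the 95% interval of a change reached 0.60 to either side, so changes below that size were mostly not detectable at this depth.

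Rps10 was the member that rose at 1 h, from 558 and 661 RPKM at 0 h to 1313 and 996 RPKM (0.91 ± 0.23, adjusted p = 0.011). It stood at 1268 and 744 RPKM at 0.5 h (0.68 ± 0.23, 0.061), and back at 732 and 750 RPKM at 4 h. Rps14, a 40S protein whose loss underlies the anaemia of the human 5q- syndrome, rose at 0.5 h from 507 and 669 RPKM to 1043 and 937 RPKM (0.76 ± 0.19, adjusted p = 0.011). Rpl41 had the largest change, from 6870 and 3661 RPKM to 21664 and 9953 RPKM at 1 h, but its libraries lay far apart and it did not pass (1.55 ± 0.55, adjusted p = 0.053). Rps10, Rps14 and Rpl41 had both treated libraries above both untreated ones at those times.

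Of the 4 members that fell at 1 h, Rpl12, at the base of the stalk, went from 868 and 907 RPKM to 443 and 366 RPKM (−1.14 ± 0.30, adjusted p = 0.012). Rpl36, a large-subunit protein, went from 528 and 538 RPKM to 304 and 235 RPKM (−0.99 ± 0.28, 0.017). Rpl13a went from 735 and 760 RPKM to 432 and 399 RPKM (−0.85 ± 0.29, 0.046), and stood at 666 and 681 RPKM at 4 h. The fourth was Rps16, a small-subunit protein (−0.76 ± 0.24, 0.033). At 0.5 h Rpl8 fell from 794 and 938 RPKM to 616 and 395 RPKM (−0.81 ± 0.26, 0.045). At 2 h Rpl37a, a zinc-binding 60S protein, fell from 963 and 921 RPKM to 399 and 511 RPKM (−1.06 ± 0.25, 0.0096), as did Rpsa, from 259 and 311 RPKM to 124 and 152 RPKM (−1.04 ± 0.34, 0.043). At 4 h Rpl37a was at 496 and 564 RPKM (−0.83 ± 0.25, 0.040), and Rpl39, at the exit tunnel, fell from 1752 and 2047 RPKM to 1175 and 658 RPKM (−1.11 ± 0.33, 0.034). The groups did not overlap in any of these.

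None of the 11 calls in WT held in all 4 fits with a library left out. At 0.5 h the 2 libraries gave opposite pictures: without the deeper one 18 members were lower and 1 higher (10.3% of genes were lower), and without the shallower one 3 were higher and none lower (6.14% of genes were higher). At 1 h such fits gave 0 to 5 called members, at 2 h 0 to 2 and at 4 h 0 to 1, with none at any of these times without the deeper library of 0 h. Trimmed-mean scaling moved the split at 0.5 h to 1 higher and 7 lower, where 4.91% of genes were lower, and at 1 h to 1 higher and 8 lower, where 10.6% were.

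Cells labelled ATF4-/- showed a mixed response, in which some ribosomal protein genes rose and others fell. In each genotype all 4 times are set against the same 2 untreated libraries, which also enter the comparisons of untreated cells. Calls at several times, or before and after treatment, are thus not independent of each other. At 0.5 h 9 of 77 members were higher and 4 lower (21.4% and 1.11% of 6280 genes tested, 22.5% in all). At 1 h 7 were higher and 6 lower (17.9% and 2.36%, 20.2% in all), at 2 h 2 and 3 (15.5% and 2.28%, 17.8% in all) and at 4 h 1 and 7 (12.6% and 7.53%, 20.2% in all). Member medians were 0.01, −0.12, −0.15 and −0.20, against 0.24, 0.19, 0.15 and 0.00 for all genes. Called rises thus took a smaller share of the members than of all genes at each time, and called falls a larger one; the shares were not tested against each other. Trimmed-mean scaling, which took the median of all genes to −0.02, −0.01, 0.00 and 0.00, gave 5 higher and 13 lower at 0.5 h (7.45% of genes lower), 3 and 10 at 1 h (7.66%), none and 11 at 2 h (6.45%), and 1 and 8 at 4 h (8.88%).

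**Figure D3:**
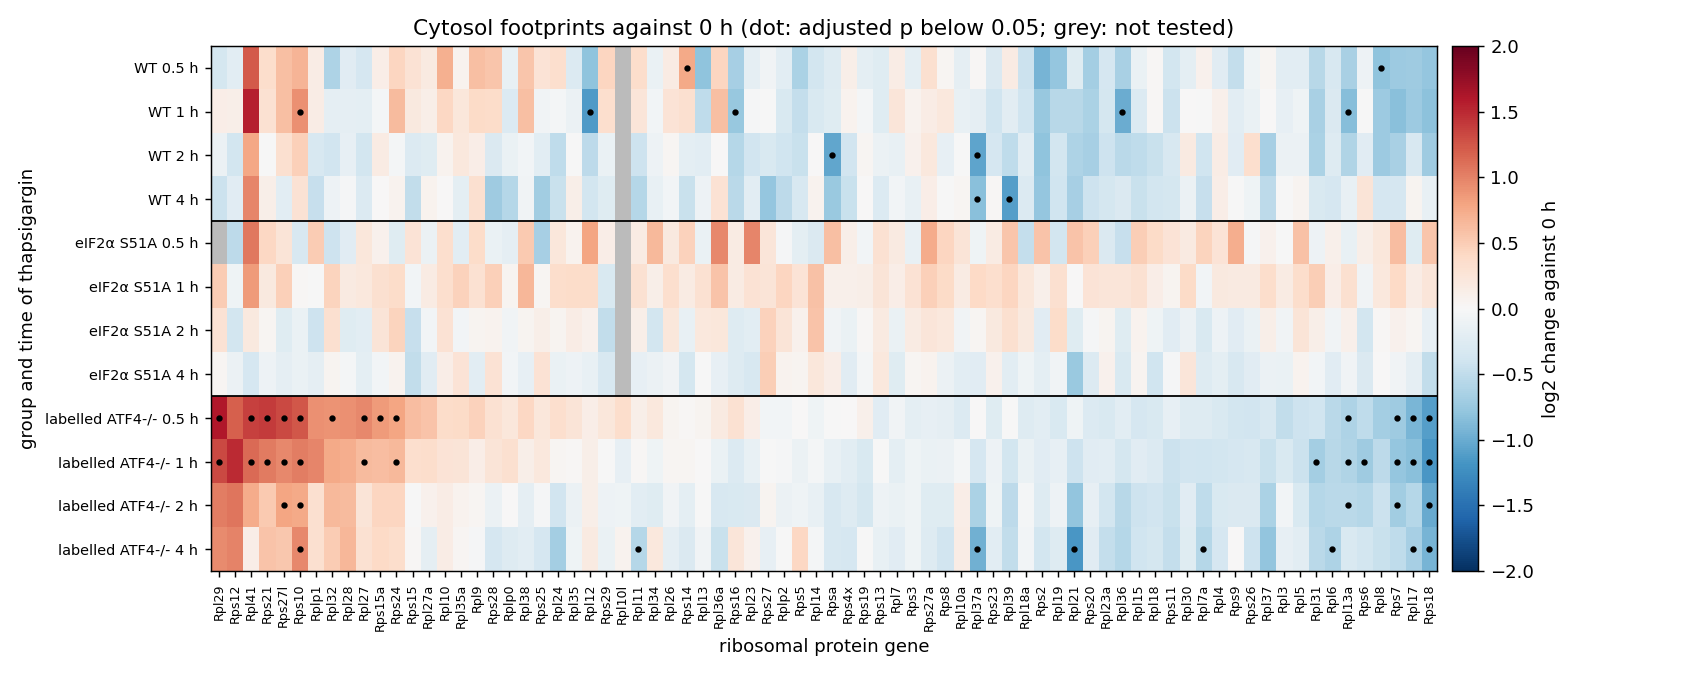
Log2 change in cytosol footprints against 0 h (colour) for the ribosomal protein genes reported here (x axis, ordered by their mean change at 0.5 and 1 h in cells labelled ATF4-/-) in each genotype and time (y axis); dots mark an adjusted p below 0.05 and grey cells were not tested. Most dots lie in the rows labelled ATF4-/-, with rises of Rpl29, Rpl41, Rps21, Rps27l and Rps10 at one end and falls of Rps18, Rpl17, Rps7 and Rpl13a at the other, 11 lie in WT rows, and no S51A row has any.

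Rps21, a small 40S protein (chromosome 2, 180257377 to 180258445), rose from 4941 and 3938 RPKM at 0 h to 12046 and 11236 RPKM at 0.5 h (1.40 ± 0.24, adjusted p = 0.00058) and 10569 and 7784 RPKM at 1 h (1.04 ± 0.24, 0.0064). Rpl41 went from 6235 and 8241 RPKM to 15927 and 21367 RPKM at 0.5 h (1.36 ± 0.26, 0.0011). Rpl29 rose from its low base of 11.4 and 28.5 RPKM to 68.4 and 48.2 RPKM (1.61 ± 0.37, 0.0050). These 3 had the largest called rises at 0.5 h. The 2 treated libraries lay above both untreated ones in each, as they did in 46.3% of all genes tested.

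Rps10 was the one member called higher at all 4 times, although its call at 2 h was lost whichever library was left out and under trimmed-mean scaling. Its libraries stood at 1532 and 1637 RPKM at 0 h, 3453 and 4045 RPKM at 0.5 h, 3050 and 3396 RPKM at 1 h, 2647 and 2695 RPKM at 2 h and 3387 and 2828 RPKM at 4 h. The rises were 1.24 ± 0.22 (adjusted p = 0.00054), 1.02 ± 0.22 (0.0029), 0.75 ± 0.22 (0.024) and 0.97 ± 0.22 (0.0050). Rps27l, a paralogue of Rps27 and a p53 target, rose from 165 and 273 RPKM to 551 and 517 RPKM at 0.5 h (1.32 ± 0.26, 0.0015), and its partner Rps27 did not pass at any time. The remaining rises at 0.5 h were those of Rpl27, Rpl32, Rps15a and Rps24, with changes of 0.79 to 0.96.

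Rps18, a protein at the bridge between the subunits (chromosome 17, 33951999 to 33956001), was the one member called lower at all 4 times. It went from 5013 and 4135 RPKM to 2246 and 2004 RPKM at 0.5 h (−1.1 ± 0.24, adjusted p = 0.0033) and 2416 and 1693 RPKM at 1 h (−1.17 ± 0.24, 0.0023). It stood at 2403 and 2124 RPKM at 2 h (−1.01 ± 0.24, 0.0074) and 2068 and 2774 RPKM at 4 h (−0.93 ± 0.24, 0.012). Its calls at 2 h and 4 h were each kept in 2 of the 4 fits with a library left out. Rps18 was also among the members that stood highest above WT before treatment (1.59 ± 0.28, 5.2e-05). That difference and the falls at all 4 times rest on the same 2 untreated libraries labelled ATF4-/-. Rpl17, at the exit tunnel, fell from 409 and 497 RPKM to 275 and 210 RPKM at 0.5 h (−0.91 ± 0.22, 0.0082) and was called again at 1 h and 4 h. Rps7 fell from 1579 and 1933 RPKM to 1041 and 1086 RPKM (−0.72 ± 0.20, 0.017) and Rpl13a from 1076 and 1315 RPKM to 804 and 756 RPKM (−0.61 ± 0.16, 0.013). Falls thus came in both subunits.

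At 1 h the largest called rises were again those of Rpl29 (1.32 ± 0.37, adjusted p = 0.019), Rpl41 (1.13 ± 0.26, 0.0052) and Rps21, and Rps7 fell by 0.77 ± 0.20 (0.013). At 2 h the calls were Rps10, Rps18, Rps27l (0.79 ± 0.26, 0.046), Rps7 (−0.70 ± 0.20, 0.024) and Rpl13a (−0.53 ± 0.16, 0.034). At 1 h Rps6 fell as well, from 5236 and 3609 RPKM to 2448 and 2906 RPKM (−0.70 ± 0.23, adjusted p = 0.044), as did Rpl31 (−0.69 ± 0.23, 0.043). At 4 h the falls were those of Rps18, Rpl17, Rpl21 (−1.16 ± 0.28, 0.0093), Rpl37a (−0.95 ± 0.27, 0.020), Rpl6 (−0.62 ± 0.21, 0.047), Rpl7a (−0.57 ± 0.17, 0.029) and Rpl11 (−0.57 ± 0.18, 0.039). Of the 13 calls at 0.5 h, 6 were kept whichever library was left out, namely Rpl27, Rpl41, Rps10, Rps18, Rps21 and Rps27l; of the 13 at 1 h, 2 were, Rps10 and Rps18. Over the 77 members Spearman's rho between coding length and change was −0.43 at 0.5 h and −0.33 at 1 h, against −0.10 and −0.11 over all genes. Short members such as Rpl41 and Rps21 sit at the high end. In WT rho was −0.34 and −0.27 over 76 members, against 0.04 and −0.02 over all genes. In S51A it was 0.03 and −0.31 over its members, against 0.003 and −0.23. These are descriptions over genes that share libraries.

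**Figure D4:**
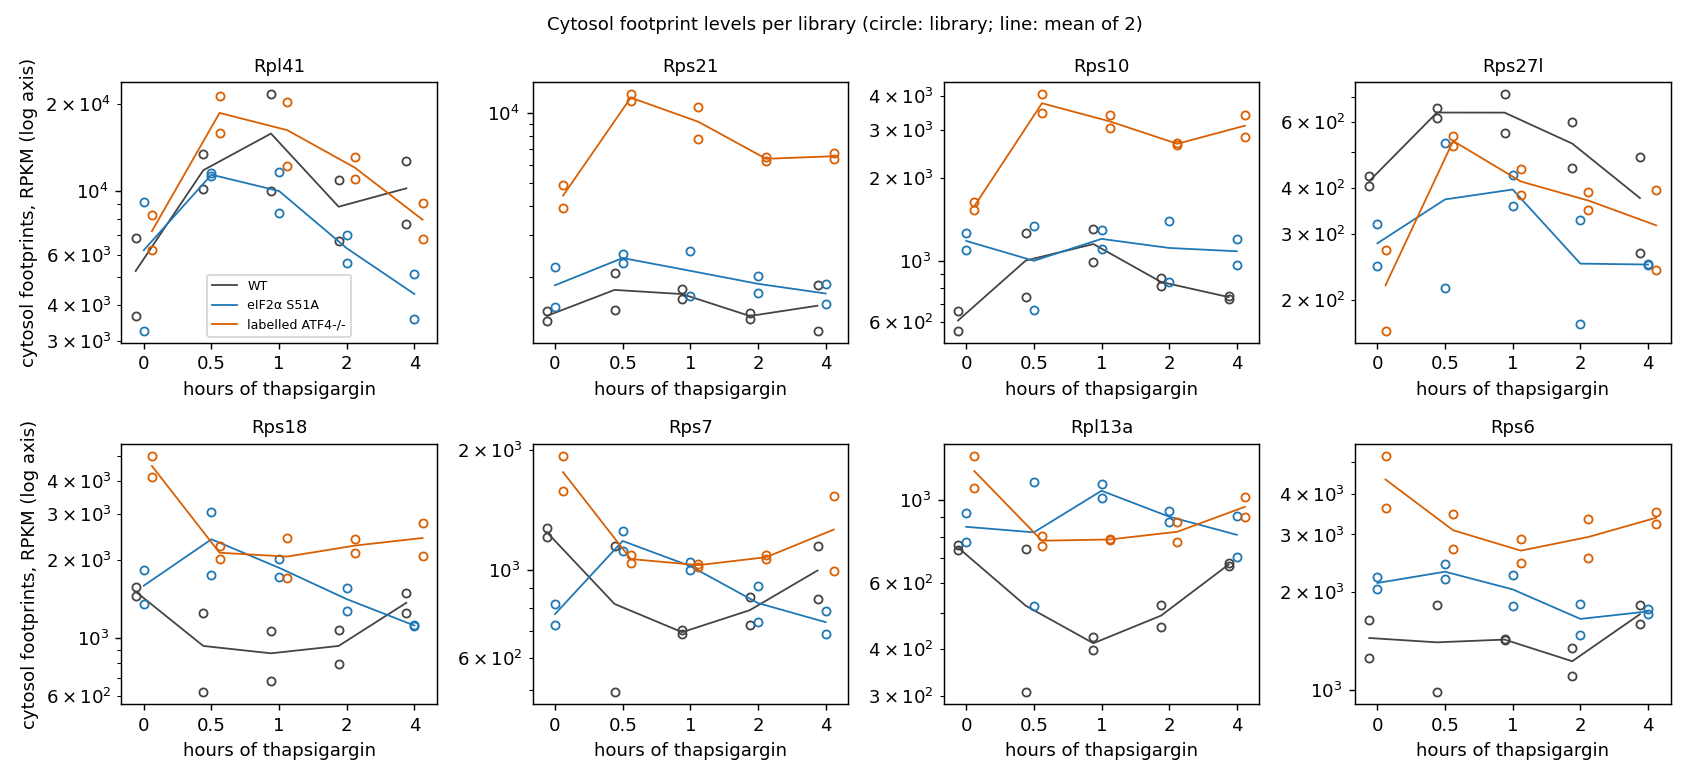
Cytosol footprint level in RPKM (y axis, log scale) of 8 ribosomal protein genes against hours of thapsigargin (x axis), with a circle per library and lines through the means of 2 for WT, S51A and cells labelled ATF4-/-. Rps21, Rps10 and Rps6 are highest in the libraries labelled ATF4-/- at each time, and there Rps21 and Rps10 climb by 0.5 h while Rps18 drops.

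In S51A cells no member was called at any time: none of 75 at 0.5 h, where 0% of all genes was called, and none of 76 at 1 h (0.0903%), 2 h (2.81%) or 4 h (2.29%). At an unadjusted limma p below 0.05 there were 9, 2, 0 and 1 members, or 12%, 2.63%, 0% and 1.32%, against 11%, 4.51%, 20.3% and 16.4% of all genes. Member medians were 0.18, 0.26, 0.04 and −0.12, against 0.19, 0.06, 0.03 and −0.08 for all genes. At 1 h 70 of 76 members lay above zero, against 60.1% of all genes, and both treated libraries of 42 lay above both untreated ones (23.5% of all genes). Rpl38 came nearest to a call, at 3205 and 2883 RPKM against 2097 and 1747 RPKM (0.67 ± 0.19, adjusted p = 0.52).

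Whether the genotypes differed in their response was tested directly. The response of S51A minus that of WT gave 1 called member at 1 h (9.58% of all genes) and none at 4 h (4.74%), and that of cells labelled ATF4-/- minus WT gave none at 1 h (0.18%) or 4 h (0.54%). At an unadjusted limma p below 0.05 there were 11, 2, 4 and 3 members in that order, or 14.7%, 2.67%, 5.26% and 3.95%, against 24%, 17.1%, 10% and 10.7% of all genes. The called member was Rps7, which went from 1208 and 1276 RPKM at 0 h to 688 and 706 RPKM at 1 h in WT, and from 820 and 727 RPKM to 996 and 1046 RPKM in S51A. Its levels thus went in opposite directions (difference of the changes 1.23 ± 0.35, adjusted p = 0.024), although neither change passed alone. The call was kept in 2 of the 8 fits with a library left out. Rpl12 came nearest among the others, in S51A (1.5 ± 0.51, adjusted p = 0.060) and in cells labelled ATF4-/- (1.25 ± 0.36, adjusted p = 0.16), both at 1 h. The median 95% interval reached 0.87 to either side in S51A and 0.79 in cells labelled ATF4-/-, so the calls in cells labelled ATF4-/- alone do not show that their response differed from that of WT. Over members, the changes of WT and of cells labelled ATF4-/-, which share no library, had a Spearman's rho of 0.51, 0.55, 0.53 and 0.35 at 0.5, 1, 2 and 4 h (n = 76), and those of WT and S51A 0.14, 0.10, 0.14 and 0.01. Over all genes the first pair stood at 0.69, 0.70, 0.76 and 0.65.

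Ribosomal protein mRNAs were translated mainly in the cytosol, and the tables flag none of the 80 as ER-targeted. In the authors' pooled footprint values the median member had a fraction on the ER of 0.334 in untreated WT, 0.296 in S51A and 0.387 in cells labelled ATF4-/-. The median of other unflagged genes was 0.389, 0.374 and 0.446, and that of flagged genes, which encode secreted and membrane proteins, 0.911, 0.906 and 0.937. At 0.5 h the median member dropped to 0.282, 0.235 and 0.306 in the 3 genotypes, and at 4 h it reached 0.368, 0.338 and 0.425. Other unflagged genes went the same way, with 0.338, 0.284 and 0.328 at 0.5 h. So did flagged genes, with 0.475, 0.847 and 0.642 at 0.5 h. Rpl29 stood out in cells labelled ATF4-/-, with 0.653 untreated and 0.756 at 4 h, against 0.387 and 0.425 for the median member.

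**Figure D5:**
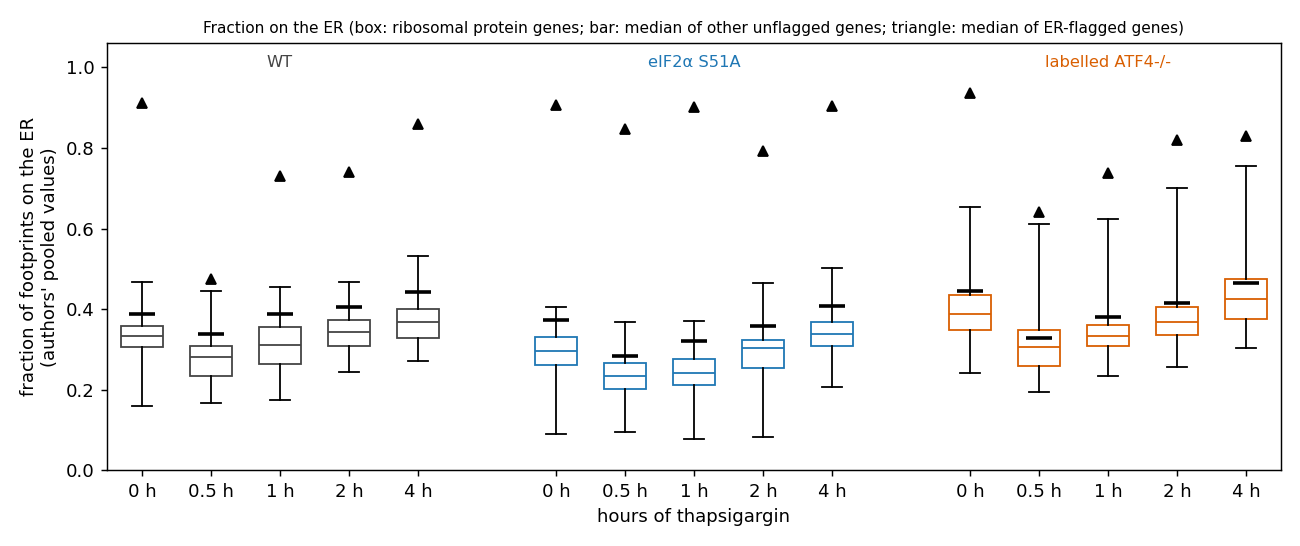
Fraction of footprints on the ER in the authors' pooled values (y axis) by genotype and hours of thapsigargin (x axis). Boxes show the quartiles and median of ribosomal protein genes at 1 RPKM or more with whiskers to the lowest and highest, bars the median of other unflagged genes and triangles that of ER-flagged genes; the boxes stay well under the triangles, and their medians range from 0.235 to 0.425.

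The shift between fractions was tested as the change on the ER minus the change in cytosol. It also holds any change of scale common to all genes of a fraction, so it is read beside the median of all genes. In WT 1 member was called at 0.5 h (19.2% of all genes) and none at 1 h (9.42%), 2 h (1.48%) or 4 h (0%), and in S51A none at any of the times (0%, 0%, 0% and 0%). At an unadjusted limma p below 0.05 there were 8, 1, 0 and 2 members in WT, or 10.5%, 1.32%, 0% and 2.63%, against 34.7%, 24.5%, 8.37% and 5.11% of all genes. In S51A there were 21, 3, 0 and 0, or 28%, 3.95%, 0% and 0%, against 26.7%, 1.62%, 2.91% and 1.48%. The called member was Rpl14, which went from 345 and 274 RPKM to 104 and 122 RPKM on the ER and from 661 and 668 RPKM to 643 and 416 RPKM in cytosol (−1.08 ± 0.34, adjusted p = 0.041), beside medians of −0.33 for members and −0.48 for all genes. That call was lost under trimmed-mean scaling and in 6 of the 8 fits with a library left out. Without the shallower WT cytosol library at 0.5 h, 14 members were called, all towards the cytosol, as were 25.5% of all genes in that direction. In cells labelled ATF4-/- 10 of 77 members were called at 0.5 h, all towards the cytosol (29.1% of all genes), and none at 1 h (8.14%), 2 h (3.12%) or 4 h (2.39%), with 9, 0 and 2 members there at an unadjusted p below 0.05 (11.7%, 0% and 2.6%, against 22.6%, 9.33% and 7.83% of all genes). The median at 0.5 h was −0.46 for members and −0.67 for all genes, so the median member moved less towards the cytosol than the median gene. Rps15a (−1.53 ± 0.35, adjusted p = 0.0062), Rpl23a (−1.43 ± 0.44, 0.026) and Rps21 (−1.16 ± 0.35, 0.024) shifted most. Rps15a, for one, went from 1105 and 1657 RPKM to 872 and 816 RPKM on the ER and from 1586 and 2285 RPKM to 3528 and 3318 RPKM in cytosol. With trimmed-mean scaling within each fraction no member was called, and the median member stood at 0.35 against 0.04 for all genes.

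The mRNA libraries of WT were shallow, so 20 of the 80 members passed the depth filter of 20 predicted reads among 289 genes tested. None was called in cytosol mRNA at 0.5 h (6.57% of genes), 1 h (4.84%), 2 h (4.15%) or 4 h (8.30%), with 0, 2, 4 and 1 at an unadjusted limma p below 0.05 (0%, 10%, 20% and 5%, against 16.3%, 20.8%, 16.3% and 18.7% of all genes). All 20 lay below zero at 1, 2 and 4 h, where 30.4%, 39.8% and 48.4% of all genes lay above, with medians of −0.38, −0.45 and −0.24, against −0.22, −0.15 and −0.03 for all genes, and trimmed-mean scaling took the member medians to −0.17, −0.30 and −0.22. Rpl11 came nearest to a call at 4 h (adjusted p = 0.089). For footprints relative to mRNA, the translational efficiency, no member was called at any of the 4 times (0.424%, 1.27%, 0% and 0% of genes), with 4, 3, 1 and 1 at an unadjusted p below 0.05 (20%, 15%, 5% and 5%, against 13.6%, 16%, 9.28% and 3.8% of all genes) and member medians of −0.21, 0.25, 0.23 and 0.15. The median 95% interval reached 0.83 to either side.

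The authors' pooled mRNA totals placed the genotypes far apart. Ribosomal protein genes made up 3.34% of the summed mRNA total in untreated WT (6.15% over the recovered libraries, whose sum leaves out genes with no library value), 13.7% in S51A and 16.5% in cells labelled ATF4-/-, while their footprint shares were 10.8%, 10.8% and 17.2%. The median member had 306 RPKM of mRNA in WT, 1522 RPKM in S51A and 1135 RPKM in cells labelled ATF4-/-. In untreated mRNA, 35 members at 1 RPKM or more had a fraction on the ER in cells labelled ATF4-/-, against 77 in WT and 78 in S51A. Of other unflagged genes 247 had one, against 7180 and 4501. The totals of cells labelled ATF4-/- may thus not be like those of the other genotypes. Of members named for their footprints, Rps10 had 66.2, 1406 and 618 RPKM of mRNA in that order, Rps21 had 129, 1481 and 1360 RPKM, and Rpl38 had 136, 1659 and 636 RPKM. These pooled values allow no test, and whether library preparation or depth plays a part was not tested.

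Several lists of genes of related function were described beside the members. In untreated cells labelled ATF4-/- against WT, 13.8% of all genes tested were higher and 37.5% lower. Of 7 ribosomal proteins under other symbols, 3 were higher there and none lower (median 0.53), among them Gnb2l1, the scaffold RACK1 (1.56 ± 0.21, adjusted p = 1.5e-06) and Rpl22l1 (1.40 ± 0.37, 0.0030). Of 16 tested genes listed for known TOP mRNAs, mostly but not only translation factors, 7 were higher (median 0.46). They were led by the elongation factor subunits Eef1b2 (2.33 ± 0.22, 6.7e-09) and Eef1g (1.66 ± 0.30, 5.4e-05). Of 25 tested ribosome assembly genes, 13 were higher and 2, Ltv1 and Gnl3, lower (median 0.53), and of 17 mitochondrial ribosomal proteins 7 were higher and 2 lower (0.41). In S51A, 16 of 22 tested assembly genes were lower than in WT and none higher (median −0.82), among them the nucleolar Gnl3 (−1.79 ± 0.20, 3e-07) and Ncl (−1.1 ± 0.32, 0.0092). Of all genes 25.3% were lower and 11% higher, and the member median was 0.08. After thapsigargin in WT, 8 of 23 assembly genes rose at 1 h, including Gnl3 (1.15 ± 0.18, 0.00031) and Nop56 (0.90 ± 0.21, 0.0052). Of 17 tested genes of the TOP list 2 rose. Of all genes 17% did, so the TOP list lay near that share. Gnb2l1 fell (−0.73 ± 0.25, 0.046) as the only one of the 7 proteins under other symbols, where 6.52% of all genes fell.

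Paralogues made for particular tissues were low. Rpl3l, the muscle form of Rpl3, was listed at 0 or at most 0.126 RPKM in the authors' pooled footprint totals of all groups. Rpl39l, a germ-cell form of Rpl39, stood at 10.8, 10.2 and 13.8 RPKM in untreated WT, S51A and cells labelled ATF4-/-. Rpl10l, a testis form of Rpl10 on an autosome, was at 0 to 0.903 RPKM in WT and 2.37 to 9.01 RPKM in S51A, but at 40.3 to 49.6 RPKM in cells labelled ATF4-/- at every time. Rpl10l and Rpl10 are close copies, so reads of one may be counted on the other. Rpl22, an RNA-binding 60S protein, has no library value; its pooled footprint totals were 916, 607 and 857 RPKM untreated.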

How the data were processed

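Ribosome footprints (micrococcal nuclease) and mRNA (ribosomal RNA depleted) were sequenced from the cytosol and ER fractions of each group, 2 libraries a group, per the labels' protocols. The authors deposited, per gene, genotype and time, pooled RPKM totals over both fractions and the fraction of the total on the ER. Per the submitters' processing notes, cutadapt 1.6 and Bowtie 1.1.1 were used. The labels name neither the genome build nor how reads with several matches were placed.

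RPKM of single libraries was recovered from the deposited values, since each is a mean of whole reads over coding length. The worth of a read in each library was set to the largest that still solved the low values, since smaller ones solve them too. As a check not used to set it, reads times worth of a read, which should be alike in both libraries of a group, had a ratio of 0.972 to 1.02 in footprints and 0.876 to 1.12 in WT mRNA. Of 346992 footprint values 339856 were solved (97.9%), and of 92522 WT mRNA values 90695 (98.0%). S51A and ATF4-/- labelled mRNA was used only as pooled. Recovered libraries carry no replicate number, so none were paired.

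Genes whose predicted reads reached 20 in each library of a fit were tested with limma 3.58.1 (trend, empirical Bayes) on log2(RPKM + 1) of the deposited values, which understates changes of low genes, and called at a Benjamini-Hochberg adjusted p below 0.05 over all genes tested. The scripts were tested on simulated data. Named genes were the 3 largest called rises and falls of each comparison, members with set roles, paralogues and members on X; Rpl38, Rps10 and Rps21 mRNA and Rps12 were singled out after their values were seen. Some genes that enter the counts are not reported here. Members and lists were chosen with earlier results of these data known. Alternatives were a pseudocount of 0.1, no depth filter, trimmed-mean scaling, array weights, libraries under 500000 footprint reads left out, and each library left out in turn.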

Additional observations from a re-analysis of the deposited data

Results flagged for a closer look

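The first set of results is a tested difference between the 2 cell fractions. In cells labelled ATF4-/- at 0.5 h of thapsigargin, the change on the ER minus the change in cytosol was negative, with a limma adjusted p below 0.05, for 10 ribosomal protein genes, among them those given here. On the log2 scale it was −1.53 for Rps15a, −1.43 for Rpl23a, −1.16 for Rps21, −1.15 for Rpl14, −0.90 for Rpl5, −0.89 for Rps10, −0.74 for Rpl7, −0.74 for Rpl10 and −0.66 for Rpl13a. The median of all genes in that comparison was −0.67, so several of these lie near it, and 29.1% of all genes tested were called. With trimmed-mean scaling within each fraction no member was called, here or in WT at the same time.

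In WT at the same time the shift was negative with an adjusted p below 0.05 for Rpl14, at −1.08 on the log2 scale, where 19.2% of all genes tested were called. Between genotypes, the change of Rps7 at 1 h was higher in S51A than in WT by 1.23 on the log2 scale, where 9.58% of all genes tested were called in that comparison.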

How the results depend on the processing

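No paired analysis was possible because the recovered libraries carry no replicate number. A count-model test on recovered reads was not run. With a pseudocount of 0.1, 37 of 38 counts of called members stayed within 1.5 times, and the WT fraction shift at 0.5 h went to 2. Trimmed-mean scaling gave 8 and 9 called members in WT cytosol at 0.5 and 1 h, 0 in the WT fraction shift at 0.5 h, 11 in cells labelled ATF4-/- at 2 h, 1 in WT mRNA at 4 h, and 0 in the fraction shift of cells labelled ATF4-/- at 0.5 h, where Rpl10 (0.0765), Rpl13a (0.155) and Rpl7 (0.0696) reversed sign. Array weights gave 0, 12 and 13 in WT cytosol at 0.5, 2 and 4 h, 0 in the WT shift at 0.5 h, 4 in cells labelled ATF4-/- at 4 h, 5 in their shift at 0.5 h, 11 between untreated S51A and WT and 3 in the S51A minus WT response at 1 h. Without the depth filter there were 1 and 0 in WT at 2 and 4 h, 2 between untreated S51A and WT, and 1 in the shift of cells labelled ATF4-/- at 1 h. Leaving out libraries of low depth, which leaves 1 library in some WT groups, gave 7, 16, 14 and 10 in WT cytosol at 0.5, 1, 2 and 4 h, 31 and 2 in the WT shift at 0.5 and 1 h, 6 in the S51A minus WT response and 2 in that of cells labelled ATF4-/- minus WT at 1 h, and 1 in WT translational efficiency at 1 h. No share of all genes called is given with a pseudocount of 0.1, array weights, no depth filter or low-depth libraries left out. The counts of members under these settings thus cannot be read as particular to ribosomal protein genes. The causes were not tested.

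Leaving out 1 library in turn gave 26 to 35 called members between untreated cells labelled ATF4-/- and WT; in cells labelled ATF4-/- 9 to 11, 4 to 8, 0 to 4 and 3 to 7 at 0.5, 1, 2 and 4 h, and 1 to 10 and 0 to 1 in their shift at 0.5 and 1 h. In WT it gave 0 to 19, 0 to 5, 0 to 2 and 0 to 1 at 0.5, 1, 2 and 4 h, 0 to 14 and 0 to 3 in the shift at 0.5 and 1 h, 0 to 3 and 0 to 1 in translational efficiency at 0.5 and 1 h and 0 to 1 in mRNA at 2 h. In S51A it gave 0 to 6 at 0.5 h, 0 to 13 in the shift at 0.5 h, 0 to 2 against untreated WT and 0 to 2 in the response minus that of WT at 1 h. The single library left in a group is assumed to vary like the others. These counts stand without the share of all genes called in the same fits, given above only for WT at 0.5 h. They thus cannot be read as particular to ribosomal protein genes. The mean of recovered libraries put the share of members at 12.7%, 13.4% and 21.98% of footprints in untreated WT, S51A and cells labelled ATF4-/- and 6.15% of WT mRNA, since its sum leaves out genes with no library value. A tract within 5 bases of the start gave 43.1% and 26.4%. Shallow WT libraries limit what can be detected, in mRNA most.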

Other observations

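Rps12, a small-subunit protein, was split between the 2 libraries of every group labelled ATF4-/-. In cytosol its footprints were at 165 and 607 RPKM at 0 h, 475 and 1121 RPKM at 0.5 h, 497 and 1592 RPKM at 1 h, 267 and 1674 RPKM at 2 h and 291 and 1369 RPKM at 4 h. On the ER they were at 172 and 794 RPKM at 0 h and at 299 and 991 RPKM at 4 h. It was not called at any time, and it was singled out after its values were seen.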
